A study of Rattus norvegicus with 12 samples.

Results

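The genes described here encode the subunits of the mitochondrial respiratory chain and of ATP synthase, with the assembly factors and regulators that share their gene names. They were chosen by name, with earlier results of these data known. The rule took genes with 1 symbol on a probe set. That symbol begins with Nduf, Uqcr or Atp5, or with Sdh followed by a, b, c or d. Symbols that begin with Cox followed by a digit from 4 to 8 were also taken. Cox7a1 and Cox8b, isoforms of muscle and brown fat, were left out by the rule, and only Cox8b of this pair was among the genes tested. The rule found 82 of the 14506 genes tested. They lay on 94 probe sets, and for the 11 genes with more than 1 the brightest probe set stood for the gene. A probe set shared by Ndufa10 and Ndufa10l1 was not used.

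The arrays hold RNA of epididymal white fat, a visceral depot, from male Sprague-Dawley rats with no genetic change named. The 4 Fed rats were the controls, the 4 P2 rats were fasted into phase 2 and the 4 P3 rats were fasted into phase 3. Phase 2 of a long fast is known as the period in which fat is the main fuel and protein is spared, and phase 3 as the late period in which body protein is broken down faster. The labels give neither the rats' age nor the length of the fast. One protocol in the labels speaks of liver, whereas all other labels name adipose tissue. Each rat gave 1 array, and values below are log2 levels per probe set, listed from rat 1 to rat 4 of a group.

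In the inner mitochondrial membrane, complex I (NADH dehydrogenase) and complex II (succinate dehydrogenase) pass electrons to coenzyme Q, complex III passes them on to cytochrome c, and complex IV (cytochrome c oxidase) hands them to oxygen. Complexes I, III and IV pump protons, and ATP synthase uses their return to make ATP. All but a few subunits are encoded in the nucleus. In white adipocytes the chain supplies ATP and redox balance for lipid synthesis and for the cycling of fatty acids. The coactivator PGC-1alpha (Ppargc1a) and the factors NRF1, GABP, ERRalpha and YY1 are known regulators of these nuclear genes.

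The arrays were alike in level, with upper quartiles of all probe sets between 7.8287 and 8.0239. Over the tested genes the array medians averaged 6.9752 in Fed, 6.9102 in P2 and 6.8201 in P3. Centring each array on that median shifts all phase 3 changes upward, so that the median change of all genes against fed moves from 0.05 to 0.21. The split of all genes then moves from 3523 lower and 3066 higher to 2670 lower and 6115 higher in P3 against Fed, from 2248 and 1401 to 1796 and 2029 in P2 against Fed, and from 2193 and 1853 to 1683 and 3115 in P3 against P2. In P3 against Fed the members' own split moved from 67 lower and 3 higher to 62 lower and 7 higher. As a floor for signal, the 1105 olfactory receptor genes had a 95th percentile of 5.0843. Cox8c and the pseudogene symbol Cox6c-ps1 were at or below it and are not described singly. Both stay in the counts, medians and means over all members, and Cox8c also in those of complex IV. Ndufs6-ps1, the other pseudogene symbol, was called lower (-0.33 in P2, -0.65 in P3), and its probes cannot be told here from those of its parent gene.

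RefSeq promoters (GRCr8) matched 72 of the 82 members. They were searched on both strands, from 250 bases before to 50 bases after the start site, for GCGCANGCG (bound by NRF1), CCGGAAGT (ETS factors such as GABP), TNAAGGTCA (ERRalpha) and AAGATGGCG (YY1). The run GCGCATGCGC holds the first word on both strands. The windows below, the 120 bases before the start site with matched words in capitals, were chosen after the values were seen. The first 3 belong to members with large falls that hold the NRF1 word, and the next 2 to members that hold it and were not called in P3 against Fed. Then follow 3 with the ETS word that fell, and finally 2 without any of the words that rose in P3. Not shown are Ndufaf4, which also rose in P3 against Fed and holds the NRF1 word, and Ndufb6, Cox6b2 and Sdhaf2. The last 3 fell deepest in P3 and hold none of the words, so the windows shown do not stand for all members.
Ndufa11 (chr9:1637494-1637613, + strand): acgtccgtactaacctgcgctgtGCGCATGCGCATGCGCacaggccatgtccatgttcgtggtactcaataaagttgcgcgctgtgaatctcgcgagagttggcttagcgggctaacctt
Ndufa12 (chr7:30658196-30658315, + strand): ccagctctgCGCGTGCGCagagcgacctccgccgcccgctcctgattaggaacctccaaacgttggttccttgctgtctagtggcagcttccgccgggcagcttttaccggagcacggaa
Atp5me (chr14:1464740-1464859, + strand): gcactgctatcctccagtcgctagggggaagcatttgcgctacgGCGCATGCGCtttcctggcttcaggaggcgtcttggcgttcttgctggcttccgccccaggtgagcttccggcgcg
Cox7a2l (chr6:16936454-16936573, + strand): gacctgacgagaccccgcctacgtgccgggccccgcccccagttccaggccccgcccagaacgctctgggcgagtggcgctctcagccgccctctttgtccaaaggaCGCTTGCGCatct
Ndufa5 (chr4:53971236-53971355, - strand): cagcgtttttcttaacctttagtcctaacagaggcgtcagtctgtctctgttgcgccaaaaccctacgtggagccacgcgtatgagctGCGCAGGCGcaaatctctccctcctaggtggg
Cox5b (chr9:46417717-46417836, + strand): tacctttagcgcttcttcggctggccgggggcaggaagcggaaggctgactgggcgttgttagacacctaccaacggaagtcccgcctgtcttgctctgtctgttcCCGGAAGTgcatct
Cox8a (chr1:213833624-213833743, - strand): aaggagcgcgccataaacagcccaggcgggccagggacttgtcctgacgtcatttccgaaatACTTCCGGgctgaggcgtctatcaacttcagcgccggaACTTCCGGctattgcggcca
Uqcrq (chr10:38089979-38090098, - strand): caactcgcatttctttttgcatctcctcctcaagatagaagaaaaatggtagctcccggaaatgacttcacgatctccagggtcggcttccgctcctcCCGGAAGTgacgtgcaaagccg
Atp5if1 (chr5:150026678-150026797, - strand): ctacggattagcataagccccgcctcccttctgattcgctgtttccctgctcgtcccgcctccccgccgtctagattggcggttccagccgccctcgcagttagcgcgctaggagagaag
Sdhaf1 (chr1:94704612-94704731, - strand): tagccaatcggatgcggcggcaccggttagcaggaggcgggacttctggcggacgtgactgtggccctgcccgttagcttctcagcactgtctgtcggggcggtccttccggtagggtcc

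The NRF1 word stood in 19 of the 72 member promoters (26.39%), against 9.807% of the 11951 tested genes with a promoter and 6.261% of all 27457 promoters. The ETS word was found in 7 member promoters (9.722%, against 5.933% of tested genes), the YY1 word in 8 (11.11%, against 2.636%) and the ERRalpha word in 3 (4.167%, against 0.8033%). At least 1 of the 4 words was present in 33 members (45.83%, against 17.32%). The median GC content was 57.17% for the members and 58.0% for the tested genes. Members with the NRF1 word numbered 14 called lower, 1 called higher and 4 not called in P3 against Fed, with a median change of -0.71. The 53 members without it numbered 44 lower, 2 higher and 7 not called, with a median change of -0.86. A matching word is a run of letters and not a measured binding site.

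The respiratory chain genes fell in the fat pad of fasted rats, moderately in phase 2 and further in phase 3. In P2 against Fed, 51 of 82 members were called lower (limma, Benjamini-Hochberg adjusted p below 0.05 over 14506 genes) and 1 was called higher, where 15.5% of all genes were called lower and 9.66% higher. The median change was -0.40 for the members and 0.01 for all genes. No member had fallen by 2-fold or more, while 265 of all 14506 genes were called at least 2-fold lower. In 51 members every P2 rat lay below every Fed rat, which held for 18.4% of all genes.

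In P3 against Fed, 67 of 82 members were called lower and 3 higher, against 24.3% and 21.1% of all genes. Their median change was -0.85, and 20 members were at least 2-fold lower, as were 907 of all 14506 genes. Every P3 rat lay below every Fed rat in 65 members, against 22.7% of all genes. From P2 to P3 a further 44 members were lower and 5 higher, against 15.1% and 12.8% of all genes, with a median change of -0.36. In that comparison 40 members had every P3 rat below every P2 rat, against 14% of all genes. The comparisons share their rats, so their counts are not independent of each other. Without P3 rat 2, or without P3 rat 4, 5 members in place of 3 were higher in P3 against Fed.

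The small changes depended on how the arrays were scaled. With arrays centred on their medians 41 members were lower in P2 in place of 51. In P3, 62 were lower against Fed in place of 67, and 33 against P2 in place of 44. Of the members chosen by the naming rule below, Ndufs7, Ndufaf1, Sdhaf2, Atp5f1c and Atp5mc1 then lost their P2 calls. The P3 calls of Ndufaf3, Sdha, Uqcrh and Cox4i2 against Fed also ended, as did those of Cox5b, Atp5f1c, Ndufaf1, Ndufaf3, Sdhb and Uqcrc1 against P2. The adjusted p of these ended calls ran from 0.0514 to 0.423. Centring brought the members higher in P3 against Fed to 7 in place of 3, among them the named members Ndufa5, Cox6a2 and Cox7a2l (0.44, 0.43 and 0.25). With quantile normalisation 41, 64 and 47 members were lower in P2 against Fed, P3 against Fed and P3 against P2, in place of 51, 67 and 44. Of the named members, Cox5a (adjusted p = 0.0792), Ndufs7, Sdhaf2, Atp5mc1 and Atp5f1c then lost their P2 calls, at 0.0771 to 0.149. Ndufaf3 and Sdha lost theirs in P3 against Fed (0.471 and 0.127), and Atp5f1c and Ndufaf3 theirs in P3 against P2 (0.0892 and 0.215).

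The group means ran in the order Fed, P2, P3 from high to low in 71 of 82 members (86.59%), and in 24.88% of all genes. In 36 members even the single rats kept that order, with every Fed rat above every P2 rat and every P2 rat above every P3 rat, against 6.25% of all genes. The mean over all 82 members, set to 0 at the Fed mean, was -0.026, -0.13, 0.02 and 0.136 in the Fed rats. It was -0.501, -0.438, -0.27 and -0.311 in the P2 rats and -0.585, -0.627, -0.796 and -0.812 in the P3 rats. The groups did not overlap on this mean. In whole tissue, fewer cells of a type and less RNA per cell cannot be told apart.

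**Figure D1:**
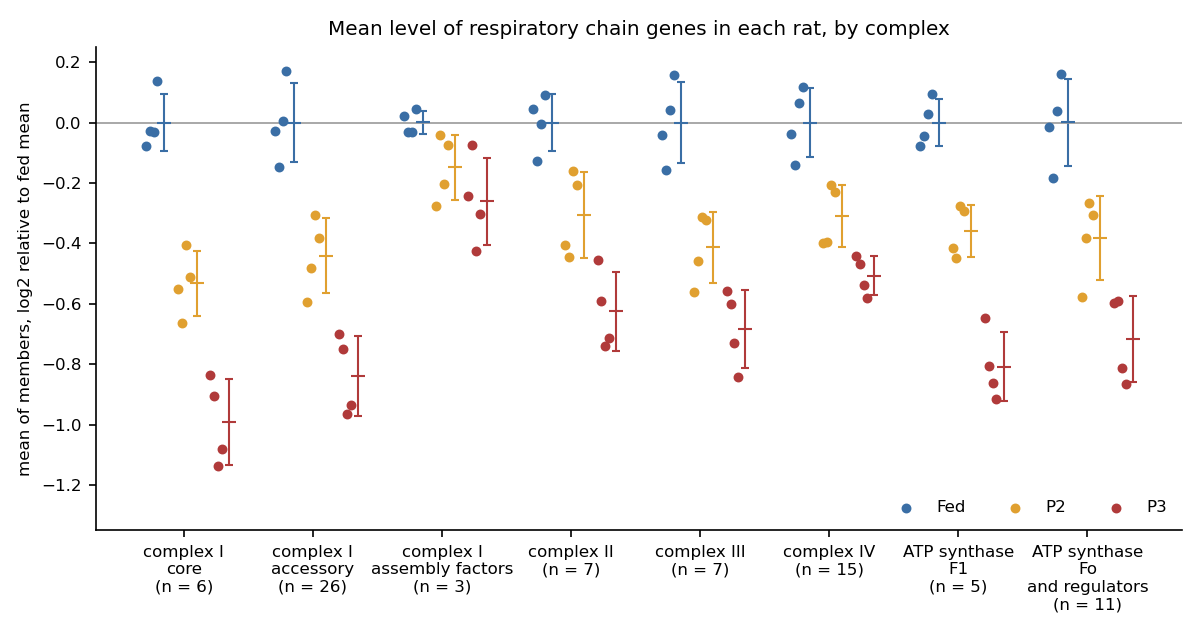
Mean log2 level of the members of each complex in each rat (points), relative to the Fed mean, with the mean and SD over 4 rats (bars) for Fed, P2 and P3. The core subunits of complex I reach -0.837 to -1.139 in the P3 rats and the complex IV genes -0.441 to -0.58. The complex IV mean includes Cox8c, below the signal floor, and Cox4i2 and Cox6a2, close to it. The complex II mean includes its assembly factors. Groups do not overlap in any panel except between P2 and P3 for the complex I assembly factors and for complex III.

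Complex I is an L-shaped enzyme whose arm in the matrix oxidises NADH and whose membrane arm pumps protons. All 6 measured core subunits, those shared with bacterial forms of the enzyme, fell in P2 (median -0.54) and in P3 (median -0.92). The shares of all genes called lower were 15.5% and 24.3%. Ndufs8, which carries iron-sulfur clusters near the coenzyme Q site, read 9.46, 9.35, 9.40 and 9.60 in Fed, 8.67, 8.61, 8.81 and 8.86 in P2, and 8.13, 8.16, 7.92 and 8.11 in P3. The 3 groups were fully separate. The change was -0.72 ± 0.0883 (SE, n = 4 rats per group; adjusted p = 5.3e-05) in P2 and -1.37 ± 0.0883 (adjusted p = 2.155e-08), a 2.59-fold fall, in P3.

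Ndufs3, its neighbour at the coenzyme Q end, read 9.76, 9.74, 9.79 and 9.91 in Fed, 9.07, 8.85, 9.31 and 9.24 in P2, and 8.69, 8.63, 8.30 and 8.32 in P3, again with no overlap, and was 2.49-fold lower in P3. Ndufs1, the largest subunit of the NADH-oxidising tip, fell by 0.57 in P2 and by 0.99 in P3 on the log2 scale. Ndufv1, which binds NADH and the flavin, changed by -0.44 (adjusted p = 0.0101) and -0.86 (adjusted p = 2.325e-05). Ndufv2, its partner at the tip, changed by -0.51 and -0.81, and not by a called amount between P2 and P3 (-0.30, adjusted p = 0.07136; called without P3 rat 1 or 2, at 0.031 to 0.0333). Ndufs7 fell the least of the 6, by 0.27 in P2 and 0.60 in P3. Its P2 call ended without Fed rat 2 or 4 or without P2 rat 2 or 4, at adjusted p of 0.0591 to 0.0698.

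Accessory subunits surround the core, stabilise it and are needed for its assembly. Of 26 measured, 17 were called lower in P2 and 22 in P3 (medians -0.45 and -0.91), against 15.5% and 24.3% of all genes. None was called higher against Fed. In P3, 10 were at least 2-fold lower, as were 907 of all 14506 genes. Ndufb6, in the membrane arm, had the deepest fall of all members. It read 9.88, 9.63, 9.95 and 10.05 in Fed, 8.79, 8.74, 9.39 and 9.16 in P2 and 8.38, 8.57, 7.87 and 7.88 in P3. These ranges did not touch, and the P3 change was -1.70 ± 0.176 (adjusted p = 2.321e-06), or 3.25-fold.

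Ndufa12, which sits where the matrix arm meets the NADH-oxidising tip, read 10.00, 9.94, 9.95 and 10.16 in Fed, 9.05, 9.09, 9.19 and 9.10 in P2, and 8.61, 8.69, 8.51 and 8.25 in P3. It was among the most even of the falls, with a P2 change of -0.90 ± 0.0956 and a P3 change of -1.49 ± 0.0956 (adjusted p = 2.114e-08). Ndufa11, a membrane arm subunit, had the deepest P2 change of all members: it read 9.78, 9.78, 9.92 and 10.27 in Fed, 8.83, 8.79, 9.05 and 9.12 in P2, and 8.49, 8.53, 8.63 and 8.53 in P3. Most of its fall was in place by P2, with -0.99 ± 0.113 (adjusted p = 2.8e-05) there and -1.39 in P3. Its further change of -0.41 from P2 to P3 was not called without P2 rat 4 (adjusted p = 0.0514).

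Ndufb3, also of the membrane arm, followed another course. It read 10.31, 9.97, 10.31 and 10.52 in Fed and 9.64, 10.15, 10.02 and 10.02 in P2, which overlap, and then 9.36, 9.0, 8.47 and 8.73 in P3. Its change was -0.32 (adjusted p = 0.2159) in P2 and -1.39 (adjusted p = 1.428e-05) in P3. It was 1 of 2 members at least 2-fold lower in P3 than in P2. That held for 312 of all 14506 genes, a share near that of the members.

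The other accessory subunits, among them the acyl carrier protein Ndufab1, were also called lower in P3, except for Ndufa5, Ndufv3, Ndufa10 and Ndufb11. Their changes ran from -0.41 for Ndufa7 to -1.34 for Ndufs5, an intermembrane space subunit that read 9.16, 9.01, 9.26 and 9.47 in Fed, 8.3, 8.31, 8.53 and 8.6 in P2 and 7.97, 7.82, 7.72 and 8.04 in P3. Ndufa6, Ndufa7, Ndufa8 and Ndufa1 were not called in P2.

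Ndufa5, Ndufv3, Ndufa10 and Ndufb11 were not called in P3 against Fed, and whether they differ from the other subunits was not tested. Ndufa5, a subunit of the matrix arm, read 9.21, 9.17, 9.11 and 9.35 in Fed, 8.61, 8.92, 9.22 and 8.98 in P2, and 9.59, 9.52, 9.69 and 9.15 in P3. It was called higher in P3 than in P2 (0.55 ± 0.133, adjusted p = 0.00624), although P3 rat 4 lay inside the P2 range, and it was not called against Fed (0.28, adjusted p = 0.1024). Without P3 rat 4 it was called against Fed too, at adjusted p = 0.022. Ndufv3, a small subunit of the tip, was not called (0.22 in P2, 0.08 in P3). Its dimmer probe set rose by 0.46 in P2 and 0.36 in P3 (adjusted p = 0.0291 and 0.048 over all probe sets).

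Ndufa10 and Ndufb11 were not called in any comparison, with P3 changes of -0.38 and -0.25 (adjusted p = 0.1476 and 0.1022). Ndufa10 varied widely between rats, from 7.49 to 8.47 in Fed. Fed rat 2 was the lowest Fed rat in both, and without it both were called lower in P3 (adjusted p = 0.0264 and 0.024).

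The 3 assembly factors of complex I that the rule takes, which are not part of the finished enzyme, went different ways. Ndufaf1 was lower in P2 (-0.47, adjusted p = 0.0281) and in P3 (-0.90, adjusted p = 0.000144). Its P2 call ended without Fed rat 1, 3 or 4 or P2 rat 1, 3 or 4, at adjusted p of 0.0558 to 0.0708. Ndufaf3 was lower in P3 only by a small step (-0.24, adjusted p = 0.0236), a call that ended without Fed rat 4 or P3 rat 1 (adjusted p of 0.0677 to 0.0693) and under 3 other scalings of the arrays. Ndufaf4 read 8.36, 8.33, 8.20 and 8.36 in Fed, 8.14, 8.43, 8.36 and 8.46 in P2 and 8.65, 8.86, 8.62 and 8.57 in P3. All 4 P3 rats lay above all others, and the rise over Fed was 0.36 ± 0.092 (adjusted p = 0.00531). Against P2 it was 0.33, and that call ended without P2 rat 1 (adjusted p = 0.0546).

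**Figure D2:**
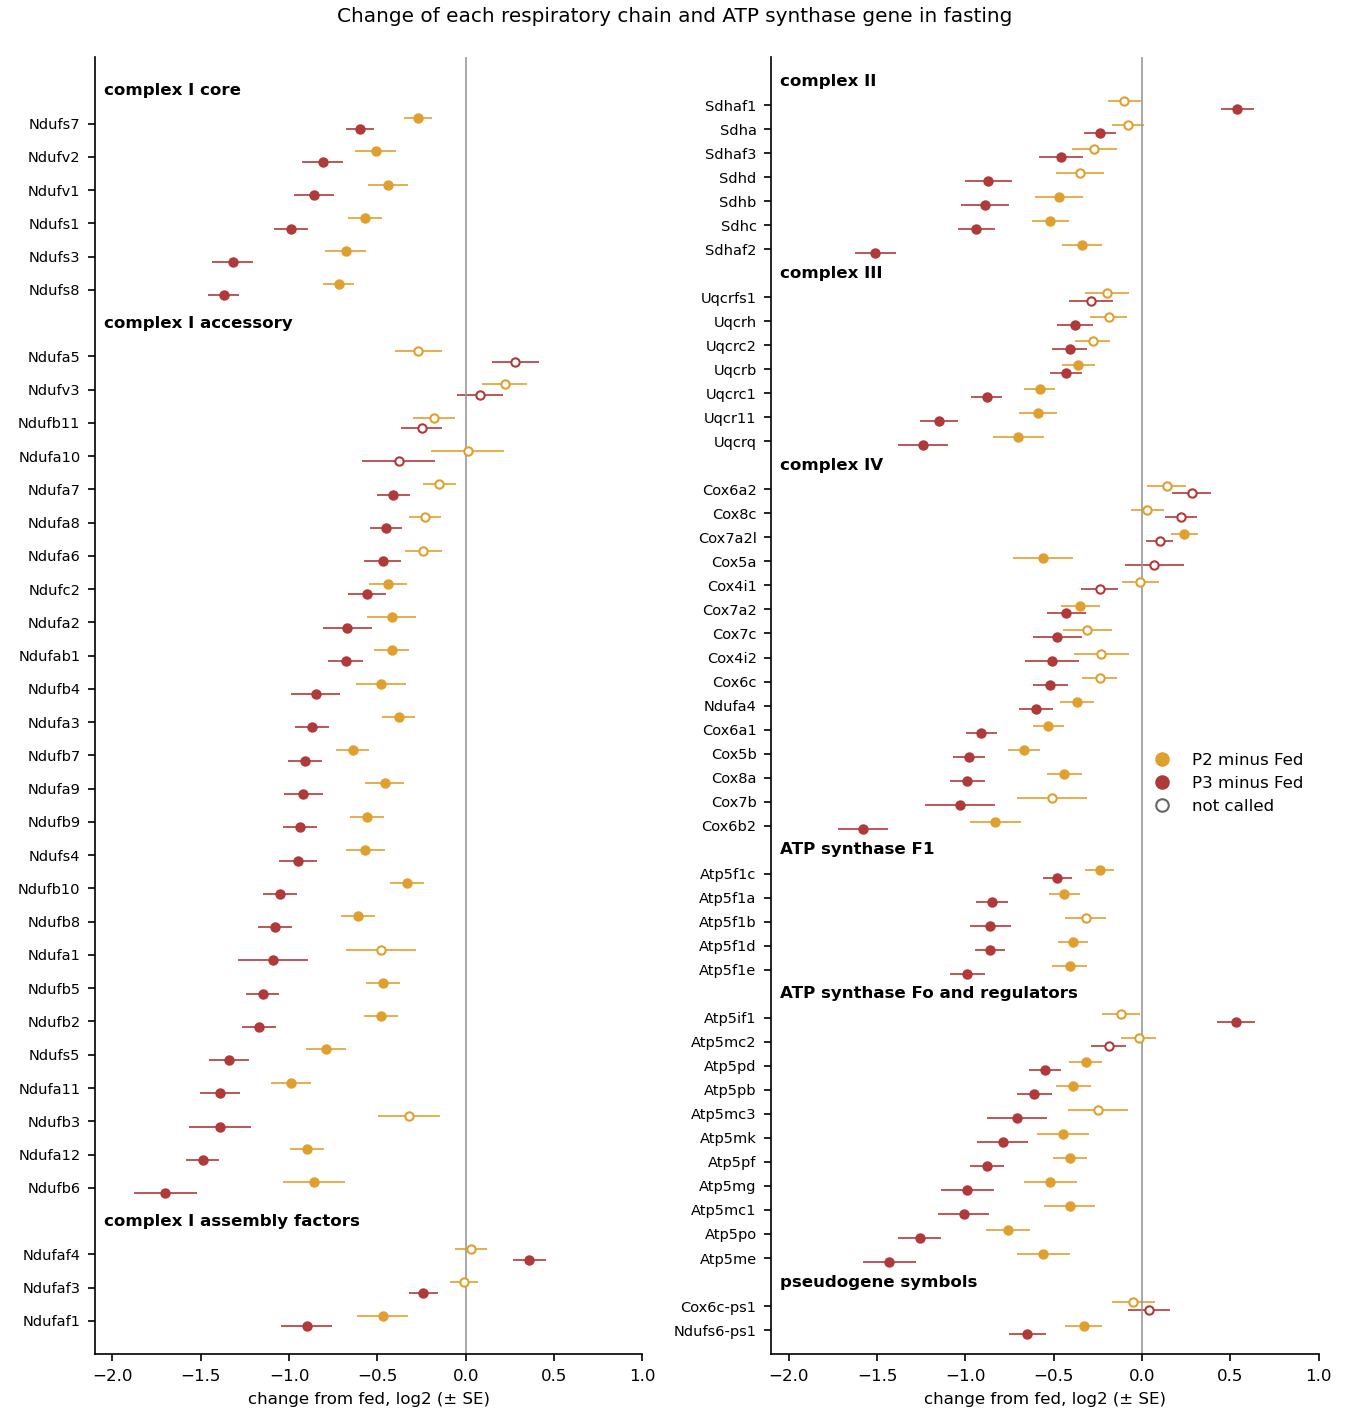
Change of each of the 82 members from Fed, in log2 units with the SE of the model, for P2 and P3, grouped by complex and ordered by the P3 change. Filled points passed the adjusted p of 0.05 and open points did not; most filled points lie left of 0, with P3 left of P2, down to -1.70 for Ndufb6, and Atp5if1, Sdhaf1 and Ndufaf4 stand right of 0 in P3.

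Complex II is the citric acid cycle enzyme that oxidises succinate, built from Sdha with its flavin, Sdhb with its iron-sulfur clusters and the membrane anchors Sdhc and Sdhd. The anchors and Sdhb fell, while Sdha moved little. Sdhc read 11.26, 11.09, 11.35 and 11.38 in Fed, 10.53, 10.62, 10.99 and 10.86 in P2 and 10.40, 10.37, 10.31 and 10.23 in P3, with no overlap, and changed by -0.94 ± 0.105 in P3 (adjusted p = 4.674e-06). Sdhb changed by -0.47 in P2 and -0.89 in P3. Its P2 call ended without Fed rat 4 or P2 rat 2, at adjusted p of 0.0594 to 0.0629. Sdhd was not called in P2 (-0.35, adjusted p = 0.07377) and was lower in P3 (-0.87, adjusted p = 9.711e-05).

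Sdha read 10.90, 10.84, 10.96 and 11.05 in Fed and 10.87, 10.76, 10.57 and 10.62 in P3. These ranges overlap, and the change was -0.24 ± 0.0909 (adjusted p = 0.0464). The call ended without any 1 of 8 rats (Fed 1, 3 and 4, P2 1 and 4, P3 2, 3 and 4), at adjusted p of 0.0525 to 0.127.

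A pair of assembly factors of complex II moved in opposite directions in P3. Sdhaf2, which attaches the flavin to Sdha, read 10.45, 10.24, 10.44 and 10.69 in Fed, 10.12, 10.13, 10.13 and 10.07 in P2 and 9.30, 8.83, 8.88 and 8.78 in P3. It was 2.84-fold lower in P3 than in Fed (-1.51 ± 0.116, adjusted p = 1.221e-07) and 2.24-fold lower than in P2. Its small P2 change of -0.34 (adjusted p = 0.0445) was lost without Fed rat 1, 3 or 4 or without any P2 rat, at adjusted p of 0.077 to 0.145. Sdhaf3, another such factor, was not called in P2 (-0.27) and was lower in P3 (-0.46). Sdhaf1, needed for the iron-sulfur clusters of Sdhb, read 8.13, 7.90, 7.74 and 7.89 in Fed, 7.81, 7.70, 7.82 and 7.95 in P2 and 8.42, 8.35, 8.60 and 8.45 in P3. Fed and P2 overlapped, all P3 rats lay above both, and the rise over Fed was 0.54 ± 0.0938 (adjusted p = 0.000293).

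Complex III carries electrons from coenzyme Q to cytochrome c. Of its 7 measured genes 4 were lower in P2 and 6 in P3 (medians -0.36 and -0.43), against 15.5% and 24.3% of all genes. Uqcrq, a small subunit, read 9.91, 9.79, 10.00 and 10.19 in Fed, 9.05, 9.24, 9.45 and 9.36 in P2 and 8.99, 8.84, 8.83 and 8.27 in P3. Its groups did not overlap, and it was 1.62-fold lower in P2 and 2.36-fold lower in P3 (adjusted p = 0.00255 and 6.697e-06). Uqcr11, another small subunit, was 2.22-fold lower in P3, and the core protein Uqcrc1 1.84-fold.

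Uqcrb, a coenzyme Q-binding subunit, fell early and no further. It was 11.49, 11.46, 11.50 and 11.62 in Fed, 11.04, 11.23, 11.13 and 11.21 in P2 and 11.23, 11.26, 10.90 and 10.96 in P3, so that P2 and P3 overlapped. The change was -0.36 in P2, -0.43 in P3 and -0.06 between them (adjusted p = 0.6612 for the last). Uqcrc2, the other core protein, was not called in P2 (-0.28, adjusted p = 0.0533) and was lower in P3 (-0.41). Uqcrh, a hinge protein for cytochrome c, was called only in P3 (-0.38, adjusted p = 0.0074), and not when the arrays were centred on their medians (0.0697). The Rieske iron-sulfur protein Uqcrfs1 was not called in any comparison (-0.20 in P2, -0.29 in P3, adjusted p = 0.07358 for P3); without Fed rat 2 it was called in P3 (adjusted p = 0.0199).

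**Figure D3:**
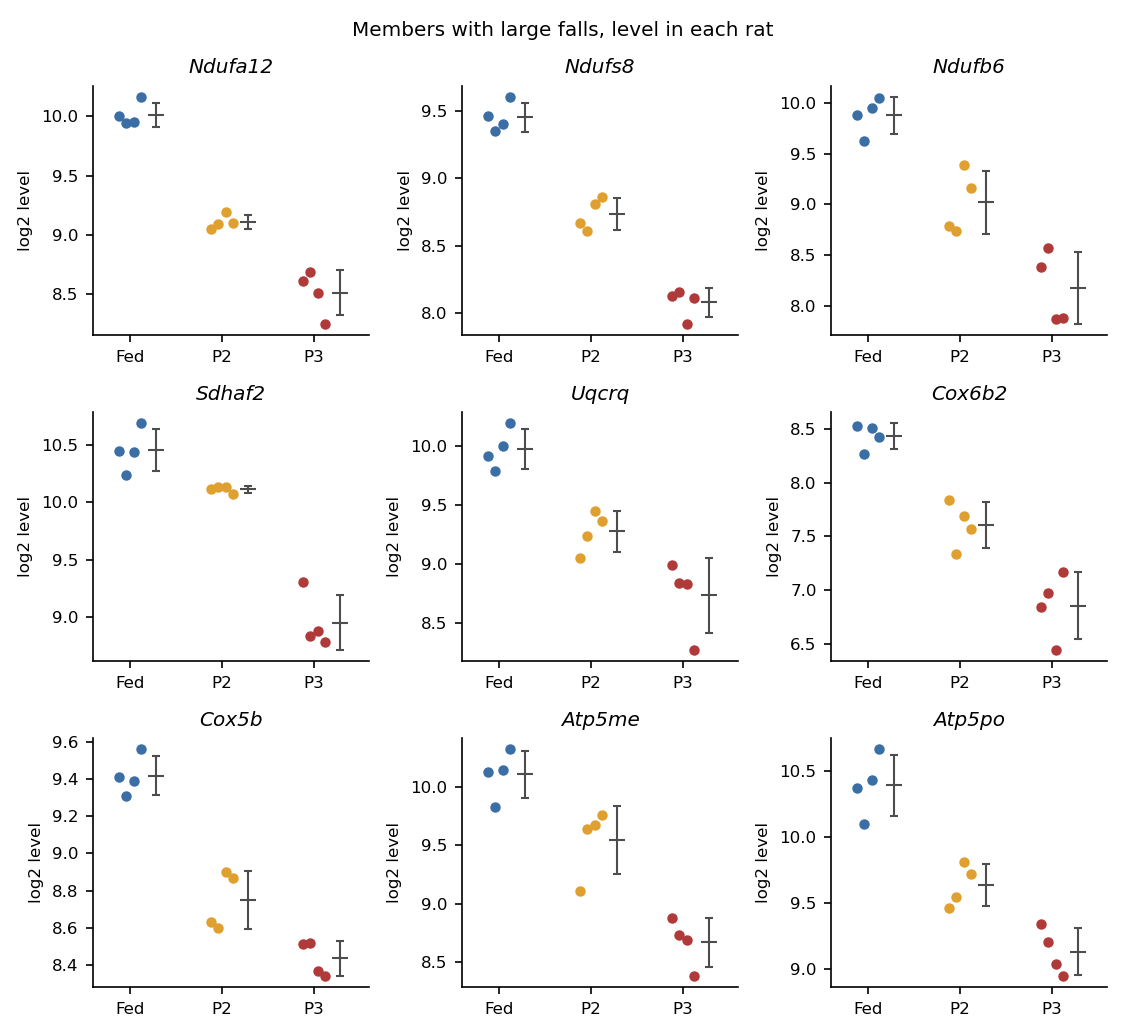
Log2 level in each rat (points) with the mean and SD over 4 rats (bars) of 9 members with large falls, from complexes I to IV and ATP synthase, in Fed, P2 and P3; the axes do not start at 0. In each of the 9 genes the P3 rats lie below all Fed rats, and Sdhaf2 drops mainly between P2 (10.07 to 10.13) and P3 (8.78 to 9.30).

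Complex IV, several of whose subunits come in tissue isoforms, held members with quite different courses. Of its 15 genes 7 were lower and 1 higher in P2, and 10 were lower and none higher in P3, with medians of -0.35 and -0.51. Among all genes 15.5% were lower and 9.66% higher in P2, and 24.3% and 21.1% in P3. The 1 higher gene in P2 was thus a smaller share than among all genes. Cox5b, a zinc-binding subunit, read 9.41, 9.31, 9.39 and 9.56 in Fed, 8.63, 8.60, 8.90 and 8.87 in P2 and 8.51, 8.52, 8.37 and 8.34 in P3. The groups were separate, with changes of -0.67 (adjusted p = 0.000126) and -0.98 (adjusted p = 8.488e-07). Its last step from P2 to P3 (-0.31, adjusted p = 0.0192) ended as a call without P2 rat 3 or 4 or P3 rat 4, at 0.0596 to 0.0645.

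Cox8a, the widespread isoform of the smallest subunit, read 11.58, 11.86, 11.83 and 11.94 in Fed, 11.36, 11.18, 11.45 and 11.45 in P2 and 10.93, 10.66, 10.88 and 10.77 in P3. The fall was 1.36-fold in P2 and 1.99-fold in P3, with no overlap. Cox6b2, known as the testis isoform of a subunit at the dimer interface, had the deepest fall of the complex. It read 8.53, 8.27, 8.51 and 8.42 in Fed, 7.84, 7.33, 7.69 and 7.57 in P2 and 6.84, 6.97, 6.44 and 7.17 in P3, again without overlap, and changed by -1.58 ± 0.143 in P3 (adjusted p = 6.252e-07). Cox7b, a small membrane subunit, was lower in P3 by 1.03 on the log2 scale. In P2 it was not called (-0.51, adjusted p = 0.0795). It was called there without Fed rat 2 (0.024), with only the 2 groups compared (0.0422) and with array weights (0.0258).

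Cox4i1, the main form of the subunit at which ATP inhibits the enzyme, read 11.23, 11.09, 11.37 and 11.42 in Fed, 11.08, 11.22, 11.44 and 11.33 in P2 and 11.22, 11.03, 11.06 and 10.85 in P3. The ranges overlapped throughout, and it was not called (-0.01 in P2 and -0.24 in P3, adjusted p = 0.9676 and 0.0802). Without Fed rat 2, or without P3 rat 1, it was called in P3 at adjusted p of 0.0405 to 0.0411. Cox4i2, a form known from lung and induced by low oxygen, was lower in P3 (-0.51, adjusted p = 0.01457), with overlapping ranges, a call that ended without Fed rat 4 (0.0512). It lay close to the floor, at 5.46 to 6.20 in Fed and 5.08 to 5.64 in P3. In P2 it was not called (-0.23, adjusted p = 0.3345) except without Fed rat 2 (0.0376). The muscle isoform Cox6a2 was near the floor, at 5.14 to 5.74 over all rats, and was not called (0.28 in P3, adjusted p = 0.0543), although without Fed rat 3, P2 rat 1, P3 rat 1 or P3 rat 4 it was (0.0233 to 0.0483). Its counterpart Cox6a1 fell by 0.53 in P2 and 0.91 in P3 on the log2 scale. Ndufa4, named for complex I but known as a complex IV subunit, was 1.29-fold lower in P2 and 1.52-fold lower in P3.

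Cox5a and Cox7a2l left the common course. Cox5a, which binds thyroid hormone metabolites, read 11.32, 11.33, 11.31 and 11.41 in Fed, 10.63, 10.68, 10.96 and 10.87 in P2 and 11.70, 10.76, 11.73 and 11.48 in P3. It fell in P2 with no overlap (-0.56 ± 0.169, adjusted p = 0.0261) and was higher in P3 than in P2 (0.63, adjusted p = 0.0122), where P3 rat 2 alone stayed among the P2 values. Without that rat P3 was also above Fed, by 0.29 (adjusted p = 0.0261). The P2 call ended without any 1 Fed rat or without P2 rat 1 or 2, at adjusted p of 0.0503 to 0.0739. A second Cox5a probe set changed by -0.51 in P2 and 0.08 in P3.

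Cox7a2l, which joins complexes III and IV in supercomplexes, was the only member called higher in P2. It read 10.41, 10.40, 10.48 and 10.61 in Fed, 10.67, 10.72, 10.69 and 10.78 in P2 and 10.51, 10.71, 10.53 and 10.55 in P3. All P2 rats lay above all Fed rats, by 0.24 ± 0.0767 on average (adjusted p = 0.0339). The call ended without Fed rat 1, 2 or 3 or P2 rat 2, 3 or 4, at adjusted p of 0.0562 to 0.0962, which took the count of members higher in P2 from 1 to 0.

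The rest of complex IV moved with the falls. Cox6c, Cox7a2 and Cox7c, small subunits around the core, were lower in P3 by 0.52, 0.43 and 0.48 on the log2 scale. Only Cox7a2 of these was called in P2 (-0.35, adjusted p = 0.0328).

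ATP synthase has a catalytic F1 head in the matrix and an Fo part in the membrane. All 5 F1 subunits were lower in P3 (median -0.86), against 24.3% of all genes. In all 5 every Fed rat lay above every P2 rat and every P2 rat above every P3 rat, against 6.25% of all genes. Atp5f1a, the alpha chain, read 12.08, 12.14, 12.17 and 12.26 in Fed, 11.70, 11.56, 11.84 and 11.79 in P2 and 11.50, 11.34, 11.17 and 11.25 in P3. It was 1.36-fold lower in P2 and 1.80-fold lower in P3 (adjusted p = 0.00233 and 2.799e-06). Atp5f1b, the catalytic beta chain, read 12.15, 12.07, 12.24 and 12.27 in Fed, 11.88, 11.73, 11.90 and 11.92 in P2 and 11.68, 11.38, 11.11 and 11.11 in P3. Its P2 change of -0.32 missed the threshold (adjusted p = 0.0559), and without P3 rat 1 or 3 it passed, at 0.0145 to 0.0374. In P3 the beta chain was 1.82-fold lower (adjusted p = 2.527e-05).

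The delta chain Atp5f1d changed by -0.39 and -0.86. Among the F1 subunits the gamma chain Atp5f1c fell the least (-0.24 in P2 and -0.48 in P3). The epsilon chain Atp5f1e (-0.41 and -0.99) had the largest fall in P3, and the alpha chain that in P2 (-0.44). The P2 call of Atp5f1c (adjusted p = 0.0487) ended without Fed rat 1, 3 or 4, any P2 rat or P3 rat 2, at adjusted p of 0.0554 to 0.14.

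Of the 11 Fo subunits and regulators, 8 were lower in P2 and 9 in P3, against 15.5% and 24.3% of all genes. Atp5me, which helps ATP synthase dimers bend the membrane, read 10.13, 9.83, 10.14 and 10.32 in Fed, 9.11, 9.64, 9.67 and 9.76 in P2 and 8.88, 8.73, 8.69 and 8.38 in P3. P2 rat 1 stood below the other P2 rats, the groups did not overlap, and the P3 change was -1.43 ± 0.149 (2.70-fold, adjusted p = 2.432e-06). Atp5po, the stalk protein that links F1 to Fo, read 10.37, 10.10, 10.43 and 10.66 in Fed, 9.46, 9.55, 9.81 and 9.72 in P2 and 9.34, 9.21, 9.04 and 8.95 in P3. Without overlap, it was 1.69-fold lower in P2 and 2.39-fold lower in P3.

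Of the other Fo subunits, Atp5pd, Atp5pb, Atp5mk, Atp5pf and Atp5mg were called lower in both phases, with P3 changes from -0.55 to -0.99.

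The 3 c-ring genes, which encode the same mature protein, differed in their calls. Atp5mc1 was 2.02-fold lower in P3 (adjusted p = 4.503e-05). In P2 it read 8.01, 8.55, 8.55 and 8.54, and its P2 call (-0.41, adjusted p = 0.0487) was lost without any 1 of 10 of the 12 rats, at adjusted p of 0.0512 to 0.146 (it held without Fed rat 2 or P3 rat 2). Atp5mc3 was not called in P2 (-0.25, adjusted p = 0.343) and was lower in P3 (-0.71, adjusted p = 0.00333). Atp5mc2 read 10.20, 10.22, 10.30 and 10.26 in Fed, 10.23, 9.99, 10.41 and 10.28 in P2, and 9.87, 10.00, 10.19 and 10.18 in P3, and was not called in any comparison (-0.02 in P2 and -0.19 in P3), although its highest P3 rat lay just below its lowest Fed rat.

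Atp5if1, the inhibitor that stops ATP synthase from running backwards and burning ATP, rose while the enzyme's subunits fell. It read 10.70, 10.48, 10.76 and 10.69 in Fed, 10.28, 10.68, 10.64 and 10.55 in P2 and 10.97, 11.29, 11.18 and 11.34 in P3. Fed and P2 overlapped and all P3 rats lay above both. The change was -0.12 in P2 (adjusted p = 0.4846), 0.53 ± 0.108 in P3 (adjusted p = 0.000942) and 0.65 from P2 to P3 (1.57-fold, adjusted p = 0.000421).

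**Figure D4:**
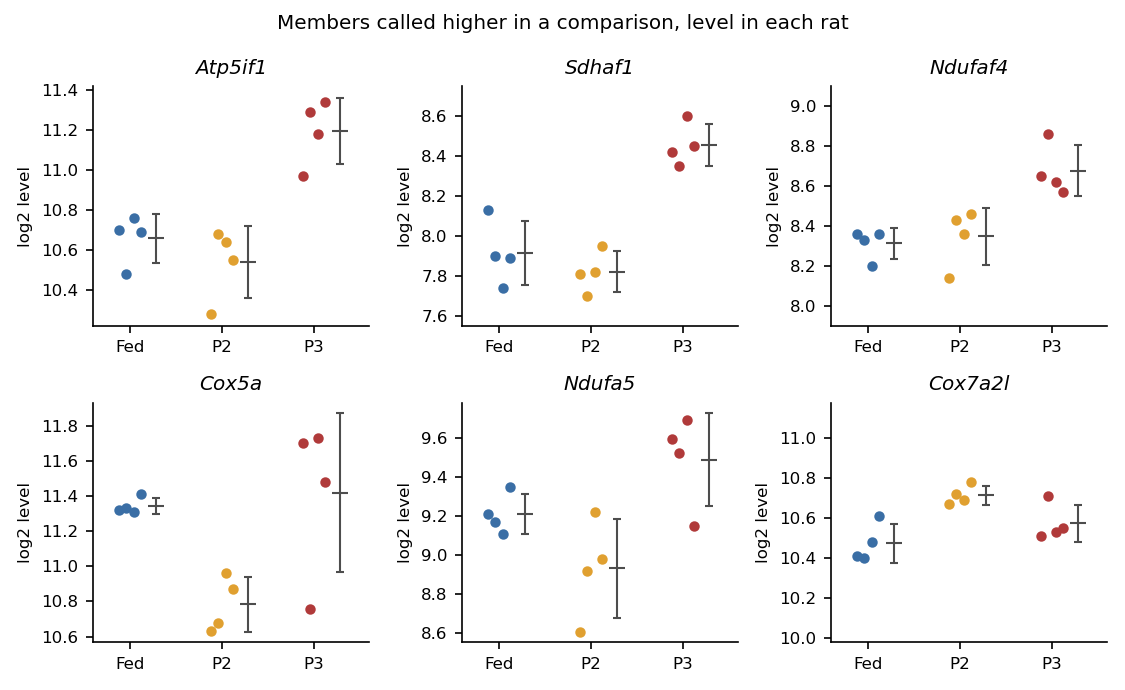
Log2 level in each rat (points) with the mean and SD over 4 rats (bars) of the 6 members called higher in at least 1 comparison, in Fed, P2 and P3; the axes do not start at 0. Atp5if1, Sdhaf1 and Ndufaf4 are higher in all P3 rats than in any other rat, Cox5a dips in P2 with P3 rat 2 (10.76) apart from the other P3 rats, and Cox7a2l is highest in P2 on average.

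Other proteins that build or supply the chain were taken from lists outside the naming rule. Of 27 further assembly factors, 12 were lower and 1 higher in P2, where 15.5% of all genes were lower and 9.66% higher. In P3, 17 were lower and 2 higher, against 24.3% and 21.1% of all genes (medians -0.28 and -0.36). Lyrm7, which helps place the Rieske protein in complex III, fell by 1.2 in P3 on the log2 scale, and Acad9, an assembly factor of complex I, by 1.06. The P3 rats read 4.79 to 5.52 for Lyrm7, around the olfactory floor, so the size of its fall is rough. Higd1a, a small factor of complex IV, fell by 0.78 in P2. Surf1 and Coa7, assembly factors of complex IV, were higher in P3 by 0.54 and 0.51. In P2 the Surf1 rise of 0.23 (adjusted p = 0.0437) was not called without any 1 of 8 rats (Fed 1, 2 and 3, all P2 rats and P3 4), at 0.0523 to 0.13.

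Of 19 genes for electron carriers and coenzyme Q synthesis, 6 were lower and 1 higher in P2, against 15.5% and 9.66% of all genes. In P3, 11 were lower and 3 higher, against 24.3% and 21.1% of all genes. Coq5, a methyltransferase of coenzyme Q synthesis, read 9.28, 9.15, 9.21 and 9.53 in Fed, 8.44, 8.45, 8.52 and 8.45 in P2 and 7.83, 7.5, 7.44 and 7.37 in P3, a change of -1.76 in P3. Coq3, a methyltransferase of the same pathway, was 1.996-fold lower in P3, whereas Coq10b, a coenzyme Q-binding protein, was higher in P3 by 0.61 against Fed and 0.80 against P2. Etfb, of the electron transfer flavoprotein, was lower in P3 than in P2 (-0.59, adjusted p = 0.0468), a call that ended without any 1 of 10 rats (all but Fed rat 1 and P3 rat 1), at 0.0529 to 0.148. Coq8a, an ATPase that supports the same pathway, went the other way: it read 8.08, 8.01, 8.46 and 8.49 in Fed, 10.41, 9.97, 10.54 and 10.18 in P2 and 11.41, 10.55, 11.20 and 10.98 in P3. Its rise of 2.01 in P2 and 2.78 in P3 (adjusted p = 2.155e-08) did not overlap with Fed. Cytochrome c (Cycs) was lower in P2 (-0.50, adjusted p = 0.028) and not called in P3 (-0.18). The P2 call of Cycs ended without Fed rat 1 or 4 or P2 rat 1 or 4, at 0.0517 to 0.0909, and with arrays centred or quantile-normalised (0.0576 and 0.0633).

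Genes that carry ATP and metabolites across the mitochondrial membranes numbered 3 lower and 1 higher of 10 in P2, against 15.5% and 9.66% of all genes. In P3, 6 were lower and none higher, against 24.3% and 21.1% of all genes. The ADP/ATP carrier Slc25a5 fell by 0.69 in P2 and 0.76 in P3 on the log2 scale, and Ucp3, an uncoupling protein of muscle and fat, by 1.29 in P3. The outer membrane channel Vdac1 changed by -0.52 in P2. Ucp2, a relative of Ucp3, was higher in P2 (0.30, adjusted p = 0.0485) and lower in P3 (-0.34); its P2 call ended without any 1 of 9 rats (all but P2 rat 3 and P3 rats 2 and 3), at 0.0528 to 0.138. Of 18 genes taken as marks of mitochondrial mass, 6 were lower and 1 higher in P2, and 9 lower and 3 higher in P3, with medians of -0.23 and -0.20. In this list the counts of higher genes lay below the shares of all genes, 9.66% in P2 and 21.1% in P3. Citrate synthase (Cs) read 10.76, 10.92, 10.80 and 10.93 in Fed, 10.47, 10.32, 10.48 and 10.34 in P2 and 10.05, 9.58, 9.80 and 9.49 in P3. It changed by -0.45 in P2 and -1.12 in P3, without overlap; averaged over its probe sets, the P2 change was -0.21 and was not called (adjusted p = 0.0986). Immt, which shapes the cristae, changed by -0.52 in P2 and -0.63 in P3, and the import subunit Timm17a by -0.51 in P2. The fusion protein Mfn1 (0.83) and the chaperone Hspa9 (0.55) were higher in P3, while Mfn2, a relative of Mfn1, was lower in P3 than in P2 (-0.73).

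Of 24 measured regulators of mitochondrial biogenesis, 2 were lower and 3 higher in P2, where 15.5% of all genes were lower and 9.66% higher. In P3, 2 were lower and 11 higher, where 24.3% of all genes were lower and 21.1% higher. In the separate fit with centred arrays 42.2% of all genes were higher, and the regulators were not counted in that fit. The medians were 0.02 and 0.22, against 0.01 and 0.05 for all genes. Ppargc1a read 4.15, 4.26, 4.16 and 3.96 in Fed, 4.76, 5.08, 4.66 and 4.38 in P2 and 5.51, 4.77, 4.72 and 4.54 in P3. It rose by 0.59 in P2 (adjusted p = 0.0323) and 0.75 in P3 (adjusted p = 0.00403), but only P3 rat 1 lay above the olfactory floor of 5.0843, so the size of the rise is rough. Tfam, which packages and transcribes mitochondrial DNA, read 8.21, 8.01, 8.15 and 8.15 in Fed, 8.31, 8.44, 8.45 and 8.44 in P2 and 8.75, 8.77, 8.45 and 8.82 in P3, and rose by 0.28 and 0.57. Nrf1, the factor whose word is shown above, rose by 0.23 in P2 and 0.32 in P3 (adjusted p = 0.0298 and 0.00203).

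These 3 rises in P2 lay close to the threshold. That of Ppargc1a also ended under quantile normalisation or cyclic loess (adjusted p = 0.074 and 0.0596). Each ended without any 1 of 6 of the 8 Fed and P2 rats (all but Fed rat 2 and P2 rat 4 for Ppargc1a, all but Fed rat 1 and P2 rat 1 for Tfam, and all but Fed rat 1 and P2 rat 4 for Nrf1), at adjusted p of 0.053 to 0.109, 0.0619 to 0.0912 and 0.0613 to 0.0879. In P3 no omission of a rat ended the call of any of the 3. Gabpa, the ETS subunit of GABP, was not called in any comparison (0.00 in P2 and 0.02 in P3), and neither was Esrra, which encodes ERRalpha (-0.14 and 0.03). Esrrg, a related receptor, read 6.93, 7.12, 6.92 and 6.79 in Fed, 5.78, 5.61, 5.78 and 5.75 in P2 and 5.81, 5.52, 6.03 and 5.69 in P3. It was the deepest fall of the list, by 1.21 in P2 and 1.18 in P3, with P2 and P3 alike within their spread (0.03 ± 0.1063, adjusted p = 0.8564). The adipocyte receptor Pparg was lower in P3 by 0.80. Myc (0.70) and, against P2, Tfb2m (0.61), a mitochondrial transcription factor, were higher in P3. Tfb1m, which modifies mitochondrial ribosomal RNA, was lower in P2 (-0.31, adjusted p = 0.0212), a call that ended without Fed rat 1 or 4 or P2 rat 1 or 3 (0.0541 to 0.0626) and with centred arrays. Ppargc1b, a relative of Ppargc1a, was lower in P3 than in P2 (-0.51, adjusted p = 0.0362), and that call ended without P2 rat 2, 3 or 4 or P3 rat 2, 3 or 4, at 0.0698 to 0.102.

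**Figure D5:**
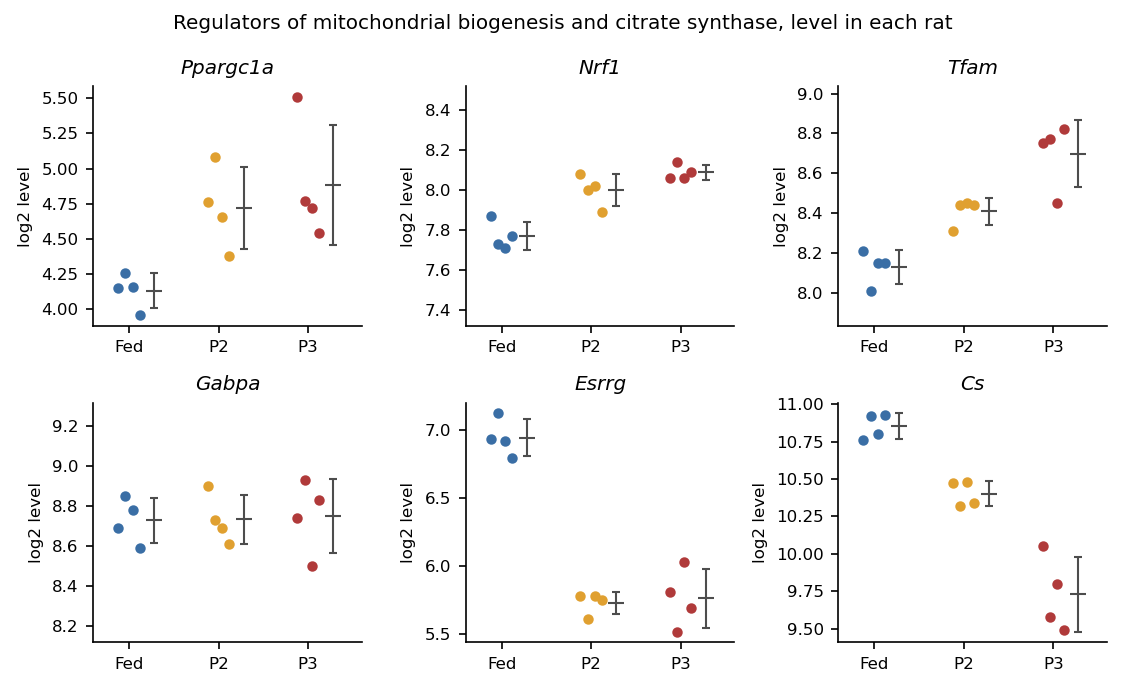
Log2 level in each rat (points) with the mean and SD over 4 rats (bars) of 5 regulators of mitochondrial biogenesis and of citrate synthase (Cs), in Fed, P2 and P3; the axes do not start at 0. Ppargc1a, Nrf1 and Tfam are lower in every Fed rat than in any fasted rat, Gabpa overlaps in all groups, Esrrg is down from P2 onward and Cs steps down in P2 and again in P3.

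Marker lists of the cell types in the fat pad are set beside the falls described above. Of all genes, 15.5% were called lower and 9.66% higher in P2 against Fed, and 24.3% and 21.1% in P3 against Fed. The mean of 10 adipocyte markers ran from 12.0 to 12.02 in the Fed rats, 11.9 to 11.96 in P2 and 11.0 to 11.6 in P3. In P2, 1 of these 10 was lower and 2 were higher (median 0.06), while 51 members of the chain were lower. In P3, 8 were lower and 1 higher (median -0.86, beside -0.85 for the members), and Adipoq read 13.13, 13.14, 13.16 and 13.18 in Fed against 12.25, 11.58, 11.61 and 11.08 in P3. Fibroblast and progenitor markers had 4 of 9 lower in P2 and 8 lower and 1 higher in P3 (median -2.13), with list means of 10.72 to 10.91 in Fed, 9.98 to 10.33 in P2 and 8.72 to 9.30 in P3. Mesothelial markers had 4 of 5 lower in P2 and 3 of 5 in P3.

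Smooth muscle markers were higher in both phases, 7 of 7, with list means of 8.48 to 9.23 in Fed, 9.71 to 10.60 in P2 and 9.55 to 10.25 in P3. Endothelial markers were higher for 5 of 7 genes in P2 and 3 in P3. Macrophage markers had 1 lower and 1 higher of 10 in P2, and 4 lower and 3 higher in P3; T and NK cell markers had 4 of 9 lower in P3 and none called in P2. For markers of skeletal and cardiac muscle, epididymis and testis, and hepatocytes, the list means stayed low in all groups. Over all rats they were 5.25 to 5.66, 4.33 to 4.76 and 4.90 to 5.28. None of their genes was called in P2. Single genes moved more than these means. In P3 against Fed the changes ran from -1.59 to 2.07 in the hepatocyte list and from -1.39 to 0.38 in the muscle list. In P3 muscle markers gave 1 lower and 1 higher of 11, epididymis and testis markers 2 higher of 10 and hepatocyte markers 1 lower and 1 higher of 9. These P3 counts, and the macrophage counts in P2, lay near or below the shares of all genes. Brown and beige markers lay at list means of 3.98 to 4.38, with Ppargc1a, also counted among the regulators, the 1 gene called of 5; Pparg likewise stands in the adipocyte list and among the regulators. Cox8b, left out above as such a marker, was not called and lay between 4.24 and 4.85. The part of these cell types in the members' falls was not tested.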

How the data were processed

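Epididymal fat of 12 male rats was measured on 1 Affymetrix Rat Gene 1.0 ST array each, with 4 rats per group; with no technical replicates, the errors and p-values reflect differences between rats. The authors deposited log2 expression values made with RMA, per the submitters' processing notes, which also name GCOS and Affymetrix Expression Console 1.1. RMA equalises the arrays' distributions, so a change common to most genes would not be seen. The RMA settings and the probe library are not given in the sources used here. Neither detection calls nor scan dates were used.

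Of 29215 probe sets, 15310 had 1 gene in the platform annotation, 323 several and 13582 none; only the first were used, and 15279 of them matched a RefSeq gene of GRCr8, with 0 symbols to update. The brightest probe set by mean over all arrays stood for a gene, which gave 14506 genes. All arrays entered 1 model with a mean per group (lmFit and eBayes, limma 3.58.1, R 4.3.3), p-values were adjusted by Benjamini-Hochberg over all 14506 genes, and genes were called at adjusted p below 0.05. The script was tested on simulated data. The members, the lists, the naming rule and the promoter words were chosen with earlier results of these data known. Named were, per complex and comparison, the 2 lowest and the highest member, those called higher, those not called in P3 against Fed (Cox8c and Cox6c-ps1 by level only) and fixed catalytic subunits and isoforms; per list, the 2 lowest and 2 highest called genes and fixed regulators. The other members, such as Cox6a1, were named after their values were seen. Promoters were 1 per gene. Titles number the rats alike in each group, but same-numbered rats did not deviate together (r from -0.155 to 0.188 over 12 pairs), so the numbers were not used as pairs. The alternatives were 3 rescalings, a filter on the dimmest 40% of genes, probe sets averaged or all tested, 2 groups only, a trended robust prior, array weights, a replicate block and each rat left out. Python 3.11.15, pandas 2.3.3 and matplotlib 3.10.9 prepared tables and plots.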

Additional observations from a re-analysis of the deposited data

Results flagged for a closer look

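Among 144 groups of 4 rats examined for the named members, 3 held a rat whose gap to the nearest other rat took a larger share of the group's range than Dixon's 95% critical value for 4 samples allows; chance alone flags about 1 group in 20. Atp5mc1 in P2 rat 1 was 8.01, against 8.54 to 8.55 in the other P2 rats. Cox6a2 in P2 rat 1 was 5.20, against 5.47 to 5.51, close to the floor of the array. Ndufa10 in P3 rat 3 was 7.25, against 7.74 to 7.82 in the other P3 rats. What set these rats apart was not tested.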

How the results depend on the processing

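Over 22 alternatives the members called lower ranged from 36 to 59 in P2 against Fed, from 62 to 71 in P3 against Fed and from 33 to 51 in P3 against P2, all within 1.5 times the counts above. With arrays centred on their medians, the members higher in P3 against Fed were 7 in place of 3, and the median change was -0.69 in place of -0.85. Leaving out each rat in turn gave 0 to 1 members higher in P2 against Fed, 3 to 5 higher in P3 against Fed, and a median P3 change of -0.89 to -0.72, the last without P3 rat 3. With the replicate number as a block, which does not pair these rats, 44, 66 and 39 members were lower in the 3 comparisons.

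Of 156 called values of named genes, 31 lost their call without at least 1 rat, and 14 of 54 uncalled values gained one. The direction changed in 43 cases, none of them called in either fit. In P2 against Fed, these were Atp5mc2 (0.04 centred, 0.05 quantile-normalised, 0.00 by cyclic loess, 0.03 as the mean of probe sets), Cox4i1 (0.06 centred, 0.09 quantile-normalised), Ndufaf3 (0.06 centred, 0.07 quantile-normalised, 0.05 by cyclic loess) and Ndufa10 (-0.06 with array weights). In P3 against P2, they were Ndufb11 (0.02), Uqcrb (0.03) and Uqcrfs1 (0.01), all centred, and Gabpa (0.00, below 0 before rounding, quantile-normalised); in P3 against Fed, Esrra (-0.04 with array weights). Leaving out each rat, the P2 change ranged from -0.08 to 0.06 for Atp5mc2, -0.07 to 0.05 for Cox4i1, -0.18 to 0.15 for Ndufa10, -0.04 to 0.03 for Ndufaf3, 0.00 to 0.10 for Ndufaf4 and -0.05 to 0.05 for Gabpa. The P3 change ranged from -0.03 to 0.29 for Cox5a, -0.06 to 0.15 for Ndufv3, -0.04 to 0.11 for Gabpa and -0.05 to 0.08 for Esrra, and that from P2 to P3 from -0.04 to 0.29 for Ppargc1a and -0.04 to 0.10 for Gabpa. The cause of these changes was not tested. Genes near the array's floor have only a rough level.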
